A study of Mus musculus with 2 samples.

Results

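Plasma LncRNAs whose array probes carry the name of a GenBank cDNA or EST were described in mice with sham operation and in mice with liver ischemia/reperfusion injury (IRI). The array held 1209 such probes among 61194 spots that were not array controls. They were chosen by name alone, as probes that end in a probe number and do not belong to the lincRNA exon, human lincRNA, mouse lincRNA, custom or negative-control names, so no measured value entered the choice. Each of the 1209 LncRNAs had a single probe and a single spot, and no name occurred on another probe. The leading letters of the accession give its clone series, and the names fell into 45 series, of which 22 held 20 or more probes and 1084 probes in all.

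All mice were male C57BL/6 mice of 8 to 10 weeks, and all were anesthetized with sodium pentobarbital and had a midline laparotomy. In the IRI group the vessels to the left lateral and median lobes were clamped for 60 minutes, which is a 70% partial ischemia, and the liver was then reperfused for 6 hours. The sham group had the operation without vascular occlusion. Plasma was pooled within each group. The study's methods give pools of 5 to 8 mice, while the design text of the deposited series speaks of 3. Each pool was measured on 1 array, so there was no replicate, no test between the groups could be made, and every fold change below is a difference between 2 arrays. The lower signal of an LncRNA in plasma can come, among other sources, from fewer cells that release it, from less RNA per cell or from changed release. These cannot be told apart here.

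LncRNAs are long transcripts without a known protein product. They act in many ways, for example by binding proteins, guiding chromatin regulators or pairing with other RNAs, and some are found in blood, inside vesicles or bound to protein. Many mouse LncRNAs were first seen as cDNA clones. An expressed sequence tag (EST) is a single sequencing read from 1 end of such a clone, and a full-length cDNA is the sequence of the whole insert. Large mouse clone collections were read into GenBank in blocks, so the letters of an accession reflect the project and the time of its deposit. Many accessions of the AK series are full-length cDNAs of the RIKEN mouse collection, and many of the AV, BB and BY series are RIKEN ESTs. For most of these transcripts no function is known, and none of the 1209 names was found among RefSeq gene symbols or synonyms.

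The IRI sample exists in 2 versions under the same name, and whether both come from the same array was not tested. The sham column of the deposited series matrix equals the sham scanner file, with a largest difference of 0, but in its IRI column the values differ from those of the scanner. They are called the scanner version and the matrix version here and are given side by side. The 2 arrays were scanned in separate runs, so that group and scan run cannot be told apart. The choice of version moved more than these LncRNAs. The median signal of 20 spots of Gapdh, a glycolytic enzyme often used as an internal control, was 1100 in sham plasma, 189280 in the IRI scanner version and 1260 in the series matrix. Of 19 marker genes of hepatocytes, blood cells and endothelium, Tfrc, the transferrin receptor that is high in erythroid precursors, was the only 1 found by name. Its median was 3.95 in sham plasma, not well above background in any of 20 spots, against 4879 in the IRI scanner version and 2.95 in the matrix. The part of these differences in the results below was not tested.

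Fewer of the 1209 LncRNAs gave a signal in sham plasma than in the IRI scanner version. Feature Extraction marks a spot as well above background when its signal clearly exceeds that of the surrounding glass. In sham plasma 452 of the 1209 probes (37.4%) carried this mark, and in the IRI scanner version 703 (58.1%) did. The 1200 spots that the array names as negative controls carried it in 32.3% in sham plasma and in 22.7% in the IRI scanner version. Over all probes that are not negative controls the shares were 41.2% and 69.6%, so both shares of the LncRNAs lay between those of the negative controls and of the array as a whole. The series matrix has no such marks, and a floor of 16.67, the lowest sham signal with the mark, was used in their place. At or above this floor were 444 of the LncRNA probes (36.7%), 25.5% of the negative-control spots and 36.9% of all other probes.

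A stricter comparison used the 99th percentile of the negative-control spots, which was 103 in sham plasma, 74.3 in the IRI scanner version and 71.6 in the matrix. Above it lay 189 LncRNA probes (15.6%) in sham plasma, 354 (29.3%) in the IRI scanner version and 226 (18.7%) in the matrix. Over all probes that are not negative controls the shares were 14.2%, 40.5% and 17.8%. In the IRI scanner version the GenBank-named LncRNAs therefore passed this limit less often than the array as a whole, and in sham plasma and in the matrix slightly more often. The brightest negative-control spot reached 177 in sham plasma, 331 in the IRI scanner version and 19005 in the matrix, and 141, 175 and 11 LncRNA probes exceeded it.

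Of the 1209 LncRNAs, 375 were well above background on both arrays, 328 on the IRI array only, 77 in sham plasma only and 429 on neither. None was saturated, and 1 carried an outlier flag. Over all 1209 probes, Spearman's rho was 0.50 between sham and the IRI scanner version, 0.74 between sham and the matrix, and 0.56 between the 2 versions of the IRI array. These values describe probes that share a design and, for the last of them, a sample name, and many of them lie near background. Signals over 1000 were seen for 54 LncRNAs in sham plasma, 111 in the IRI scanner version and 72 in the matrix. These were 4.47%, 9.18% and 5.96% of the LncRNAs, against 4.15%, 13.6% and 5.35% of all probes that are not negative controls. The sham and scanner lists shared 28 LncRNAs, which is 51.9% of the first and 25.2% of the second. The sham and matrix lists shared 52 LncRNAs, 96.3% of the first and 72.2% of the second. The bright LncRNAs of the matrix were largely those of the sham array, and those of the IRI scanner version largely were not. The matching overlaps over all probes are not given here, so this is not read as particular to these LncRNAs. Over all probes that are not negative controls, rho was 0.41 between sham and the IRI scanner version and 0.74 between sham and the matrix.

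**Figure D1:**
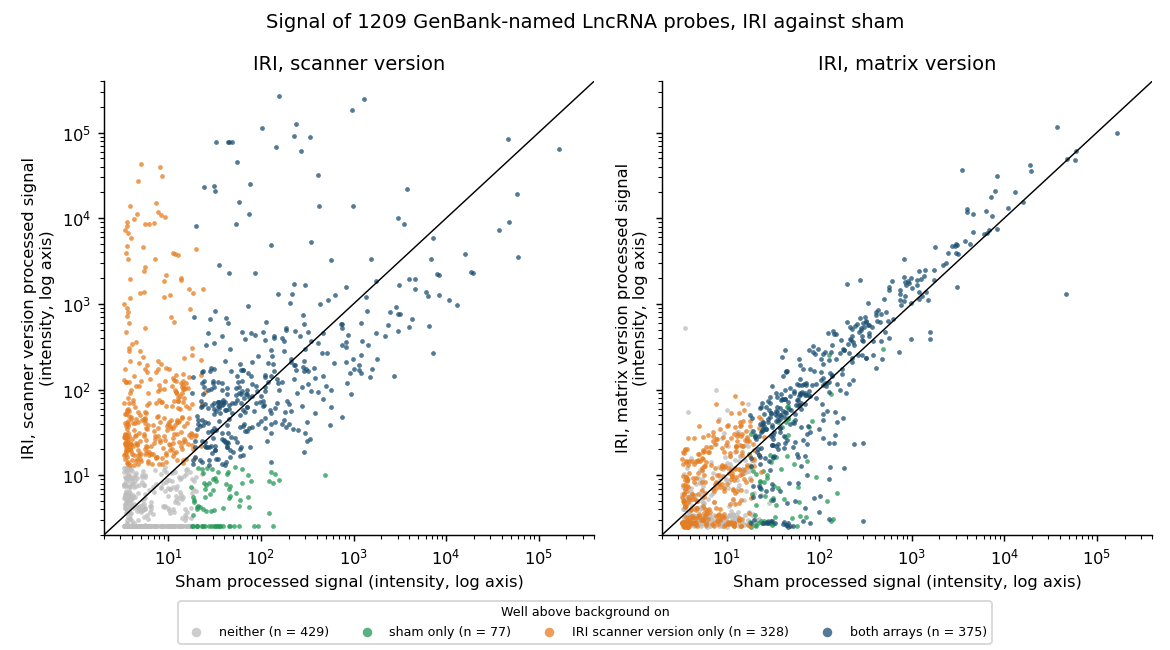
Processed signal of the 1209 GenBank-named LncRNA probes, with the sham array on the x axis and the IRI array on the y axis (intensity, log axes), from the IRI scanner version on the left and the series matrix on the right; the line marks equal signals and colours give the arrays on which the scanner files mark a probe as well above background. The points scatter widely on the left (Spearman's rho 0.50) and follow the line on the right (0.74), and the 328 probes above background in the IRI scanner version only reach 42677 on the left.

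LncRNAs seen on 1 array only were more frequent on the IRI side. The 328 seen in the IRI scanner version only were 27.1% of the GenBank-named LncRNAs, against 34.1% of all 59994 probes that are not negative controls. The 77 seen in sham plasma only were 6.37%, against 5.64%. The first share lay below that of the array as a whole and the second near it. For such LncRNAs a fold change is a lower limit, taken against the higher of the probe's own signal and the lowest signal well above background on that array, after quantile normalization. The limit reached 2-fold for 92 of the 328 and lay under 1 for 180 of them. Without normalization it reached 2-fold for 199. For all 77 seen in sham plasma only it reached 2-fold, and without normalization for 54. Quantile normalization shifts the scanner ratios downward, so the normalized counts of the 2 directions cannot be compared. AA607780, for example, had a limit of 4.48-fold lower with it and 1.62-fold lower without it. In the matrix, 79 of the 328 and 25 of the 77 had a signal at or above the floor. The shares of all such probes that reached these limits or the floor are not given here. These counts are therefore not read as particular to the GenBank-named LncRNAs.

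The 5 brightest LncRNAs of the IRI scanner version that were not above background in sham plasma were the ESTs BB306094, AV223046, CA531583, AV125165 and AV290481. BB306094 had a signal of 5.05 in sham plasma, 42677 in the IRI scanner version and 3.36 in the matrix, which is at least 480-fold higher in the scanner file after normalization and at least 2560-fold without it. AV223046 went from 8.11 to 40106 in the scanner file, at least 452-fold higher after normalization, with 2.71 in the matrix. CA531583 went from 8.44 to 31407, at least 344-fold higher after normalization. Only CA531583 of these 5 passed the floor in the matrix, with a signal of 34.5 and a limit of at least 2.95-fold higher. AV125165 had 4.71 in sham plasma, 26891 in the scanner file and 2.63 in the matrix, and AV290481 had 7.28, 14951 and 4.86. Their limits in the scanner file were at least 290-fold and at least 157-fold higher after normalization. Without it the limits of AV223046, CA531583, AV125165 and AV290481 were 2406-fold, 1884-fold, 1613-fold and 897-fold.

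In the other direction, the brightest sham signals without a counterpart in the IRI scanner version were much lower, from 17.4 to 491 over the 77 LncRNAs. The EST BI648893 had 491 in sham plasma, 10.2 in the IRI scanner version and 301 in the matrix. The scanner file put it at least 38.7-fold lower after IRI without normalization and at least 194-fold lower on the quantile-normalized scale, and the matrix 2.40-fold lower. The cDNA AK145170 had 135, 2.53 and 88.7 in the same order, at least 10.7-fold lower in the scanner file without normalization, at least 49.8-fold lower with it, and 1.71-fold lower in the matrix. For these LncRNAs the matrix showed a signal well over its floor. AK138796 (155 in sham plasma), CK386388 (143) and BI248890 (136) were near background in both versions of the IRI array. Their IRI signals were 8.70, 10.4 and 8.07 in the scanner file and 6.23, 3.10 and 2.92 in the matrix. Without normalization they were at least 12.3-fold, 11.3-fold and 10.7-fold lower in the scanner file and at least 9.32-fold, 8.56-fold and 8.16-fold lower in the matrix. On the quantile-normalized scale, which shifts the scanner ratios downward, the limits were 58.5-fold, 53.1-fold and 50.1-fold in the scanner file and 8.66-fold, 7.85-fold and 7.45-fold in the matrix. These 3 were thus lower after IRI whichever version was used.

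With the matrix in place of the scanner file, 105 LncRNAs were above background in sham plasma but under the floor after IRI. For 36 of them the limit reached 2-fold, or for 46 without normalization. Another 97 passed the floor after IRI without a sham signal above background. For 62 of these the limit reached 2-fold, or for 25 without normalization. The direction with more such LncRNAs thus depended on the normalization. The shares of all probes with these patterns are not given here, so neither count is read as particular to these LncRNAs. The largest of each kind were picked after their values were seen. AA915284 had 296 in sham plasma and 2.89 in the matrix, at least 17.5-fold lower, and its signal in the IRI scanner version was 31.4. BQ551684 had 3.57 in sham plasma and 529 in the matrix, at least 33.5-fold higher, whereas the IRI scanner version gave 5.0.

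Fold changes were taken over LncRNAs detected on both arrays, that is, with a signal marked as positive, significant and well above background, with no outlier flag. Signals were quantile normalized on the log2 scale, and an LncRNA was called upregulated at a ratio of IRI to sham of 1.5 or more and downregulated at 0.7 or less. In the scanner files 375 of the 1209 LncRNAs were detected, of which 41 (10.9%) were upregulated and 304 (81.1%) downregulated. Over all 21294 detected probes 19.1% were upregulated and 69.7% downregulated. Of 112 negative-control spots that passed the same rule, 0 were upregulated and 97 (86.6%) downregulated, with a median log2 fold change of -2.85. The median log2 fold change was -2.29 for the GenBank-named LncRNAs, -1.78 for all detected probes and -2.64 for 1886 detected probes of the other named LncRNA classes (lincRNA exons, human and mouse lincRNAs and ultraconserved regions), of which 99 were upregulated and 1597 downregulated. The 25th and 75th percentiles of the GenBank-named LncRNAs were -3.86 and -0.99.

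Many of these changes depended on the normalization. Without it, 147 of the 375 LncRNAs (39.2%) were at 1.5-fold or more and 148 (39.5%) at 0.7-fold or less, against 49.3% and 31.4% of all detected probes. The median log2 ratio was then -0.02 for the LncRNAs and 0.55 for all detected probes. With quantile normalization over detected spots only, 83 (22.1%) were upregulated and 217 (57.9%) downregulated, against 33.9% and 48.0% of all detected probes. On each of these 3 scales the median of the GenBank-named LncRNAs lay below that of all detected probes. Feature Extraction gives an error for each signal, whose median was 11.1% of the signal for the sham array and 10.2% for the IRI array for detected LncRNAs. It corresponds to a median error of 0.22 on the log2 ratio, with a range of 0.20 to 0.44. By that measure 155 LncRNAs had an unnormalized ratio more than 2 errors above 0 and 149 more than 2 errors below 0. The matching counts over all detected probes are not given here, so the split is not read as particular to these LncRNAs. Spots of the 4 probes that were printed 20 times and detected in every spot had a median SD of 0.26 in the log2 fold change. Both errors cover a single hybridization and not the spread between mice or arrays.

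In the series matrix 347 of the LncRNAs were detected, of which 124 (35.7%) were upregulated and 64 (18.4%) downregulated. Over all 17709 probes detected in this way 32.6% were upregulated and 19.9% downregulated, so the shares of the LncRNAs were near the background. Scaling to the 75th percentile in place of quantile normalization gave 203 upregulated (58.5%) and 44 downregulated (12.7%) LncRNAs, against 53.0% and 13.9% of all detected probes. The median log2 fold change was 0.27 for the LncRNAs and 0.21 for all detected probes, and the 25th and 75th percentiles of the LncRNAs were -0.28 and 0.85. Of 168 negative-control spots that passed the same rule, 29 were above the upper threshold and 58 below the lower one. The spread of fold changes was much narrower than in the scanner files. Both versions detected 322 of the LncRNAs, and the comparisons share the sham array.

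**Figure D2:**
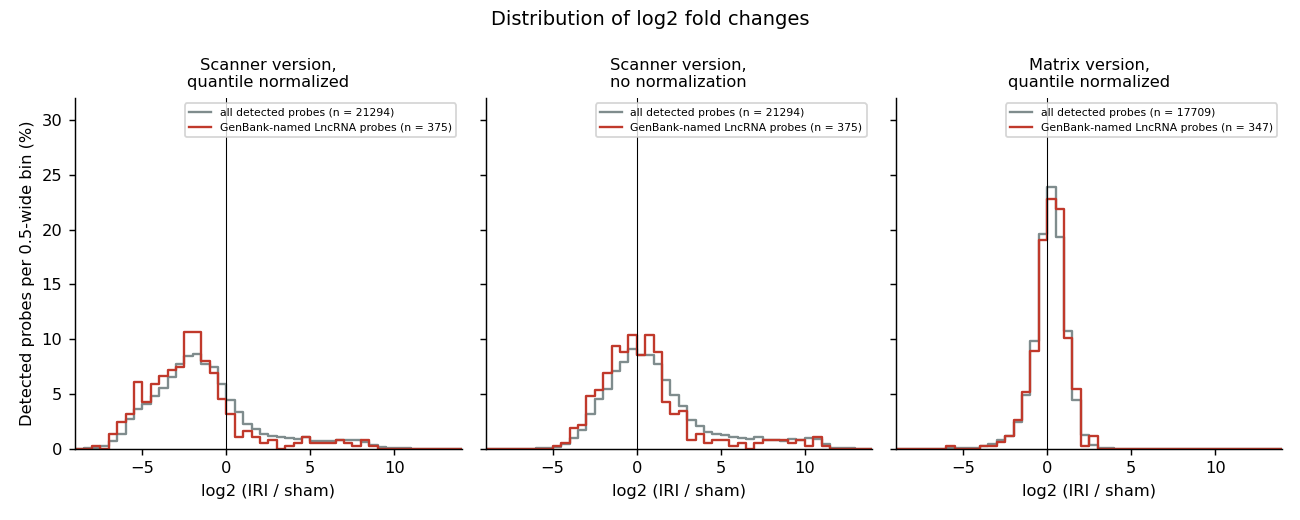
Share of detected probes in each bin of log2 fold change (x axis, IRI over sham, bins 0.5 wide; y axis, percent of detected probes) for GenBank-named LncRNA probes and for all detected probes, in the scanner files with and without normalization and in the series matrix. The LncRNAs have medians of -2.29, -0.02 and 0.27, and in the scanner files their right tail is thinner than that of all detected probes.

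The change in the scanner files followed the sham signal. LncRNAs were split by sham signal at 30, 100 and 1000, limits that were chosen after the values were seen. Of 53 detected LncRNAs with a sham signal up to 30, 9 were upregulated and 30 downregulated, with a median log2 fold change of -0.75, against 1404 and 1582 of all 3879 detected probes in this class. From 30 to 100 the median was -1.59 over 139 LncRNAs, and from 100 to 1000 it was -3.33 over 129. Above 1000 it was -5.14 over 54 LncRNAs, of which 53 were downregulated and 1 upregulated, against 2363 and 85 of all 2477. The median fall was thus larger in each brighter class. All detected probes followed the same course, with medians of -0.10, -1.15, -3.08 and -4.99 in the same 4 classes. The largest gap between the LncRNAs and all detected probes lay among the dimmer spots.

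In the matrix the medians of the LncRNAs were 1.02, 0.47, 0.01 and -0.09 in these classes, and those of all detected probes 0.88, 0.33, -0.02 and -0.09. From 100 to 1000, 26 LncRNAs were upregulated and 36 downregulated of 126, against 1122 and 1696 of all 5842 probes, and above 1000 the counts were 10 and 13 of 54, against 364 and 537 of 2479. In the lowest class 34 of 39 LncRNAs were upregulated and 0 downregulated, against 1566 and 0 of all 2271 probes there. The floor on the IRI signal limits falls in this class. The sham signal is also the denominator of each ratio, in both versions.

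**Figure D3:**
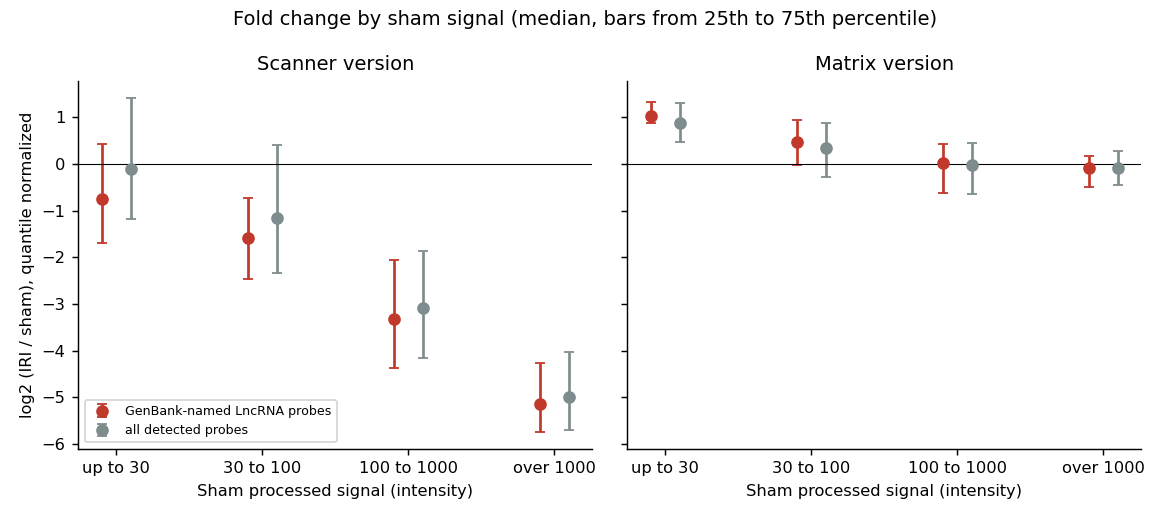
Quantile-normalized log2 fold change of IRI over sham (y axis) by class of sham signal (x axis, intensity) in the scanner files and the series matrix; points are medians and bars run from the 25th to the 75th percentile over probes. The LncRNA medians fall from -0.75 to -5.14 in the scanner files and from 1.02 to -0.09 in the matrix, and all detected probes run alongside.

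A small set of LncRNAs was far brighter in the IRI scanner version than in sham plasma. Without normalization 25 of the 375 detected LncRNAs (6.67%) were 50-fold or more higher after IRI, against 10.3% of all detected probes. Their sham signals ranged from 19.8 to 1305 with a median of 57.7, and their IRI scanner signals from 2292 to 269508 with a median of 60679. In the matrix the same 25 had a median of 24.5, from 2.53 to 1247, and 19 of them lay below their sham signal. The AK series held 6 of the 25, AV and BB 5 each and BY 3, and the other 6 belonged to 6 different series.

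The 5 largest rises in the scanner files were in this set. AV125227 had a signal of 33.0 ± 4.70 (Feature Extraction error of 1 spot, also below) in sham plasma, 78341 ± 7834 in the IRI scanner version and 2.76 in the matrix, and its log2 fold change was 8.76. BB723068 had 43.8 ± 5.67, 78618 ± 7862 and 2.61, with a log2 fold change of 8.22. BB123311 had 44.8 ± 6.08, 78249 ± 7825 and 2.60, with 8.17. These 3 are ESTs, and in the matrix each of them was under the floor. The cDNA AK216629 had 157 ± 16.2, 269508 ± 26951 and 41.5, and the EST BE370611 had 49.1 ± 6.02, 77295 ± 7730 and 2.53. Their log2 fold changes were 8.10 and 7.98 in the scanner files, and AK216629 had -1.98 in the matrix. For all 5 the IRI signal lay far over the sham signal in the scanner file and below it in the matrix.

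The 5 largest falls in the scanner files were bright ESTs. DV074327 had a signal of 7284 ± 728 in sham plasma, 266 ± 26.7 in the IRI scanner version and 17608 in the matrix, and its log2 fold change was -7.52 in the scanner files and 0.68 in the matrix. AI506744 had 2750 ± 275, 143 ± 14.6 and 4776, with -6.97 and 0.08. CA585643 had 60331 ± 6033, 3525 ± 353 and 60818, with -6.87 and -0.02. Each of these 3 was strongly lower in the scanner file and equal or higher in the matrix. CO803150 had 13030 ± 1303, 970 ± 97.1 and 20120, with -6.69 and 0.09. CD546535 had 745 ± 74.6, 47.5 ± 5.39 and 1442, with -6.52 and 0.27. Without normalization these 5 falls were from 13.4-fold for CO803150 to 27.4-fold for DV074327.

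In the matrix the largest rises were smaller and other LncRNAs led. The EST BQ550698 had a signal of 3544 in sham plasma and 36142 in the matrix, a log2 fold change of 2.86, and 8529 in the scanner file, where the value was -2.09 after normalization and 1.27 without it. The cDNA AK029623 had 42.7 and 294, with 2.70, and 88.9 in the scanner file, with -1.06. CK383189 had 39.6 and 241, with 2.57, and 25.9 in the scanner file, with -2.45. For these 3 the matrix gave an upregulation and the normalized scanner file a downregulation, but without normalization AK029623 was, like BQ550698, higher in the scanner file (1.06), and CK383189 had -0.61. CA876181 went from 198 to 1695 in the matrix (2.56) and had 67.7 in the scanner file (-4.16), and BY307613 went from 280 to 1902 (2.19) and had 109 in the scanner file (-4.10).

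The largest fall in the matrix was that of the EST AV038163. It had a signal of 46470 in sham plasma, 1319 in the matrix and 84151 in the IRI scanner version. Its log2 fold change was -5.53 in the matrix, -1.54 in the scanner files and 0.86 in the scanner files without normalization. AV038163 was among the brightest spots of these LncRNAs in sham plasma. BB722258 had 300 in sham plasma, 23.8 in the matrix and 1654 in the scanner file, with -3.70 in the matrix and -0.98 in the scanner files. BB761138 had 238, 23.1 and 124677 in the same order, with -3.38 and 6.05. BY394568 had 144, 23.7 and 68113, with -2.53 and 5.79. BB761138 and BY394568 were thus downregulated in 1 version and among the strongest upregulated LncRNAs in the other. CF612973 had 1587, 386 and 173, with -2.59 and -5.97, and was lower in both.

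**Figure D4:**
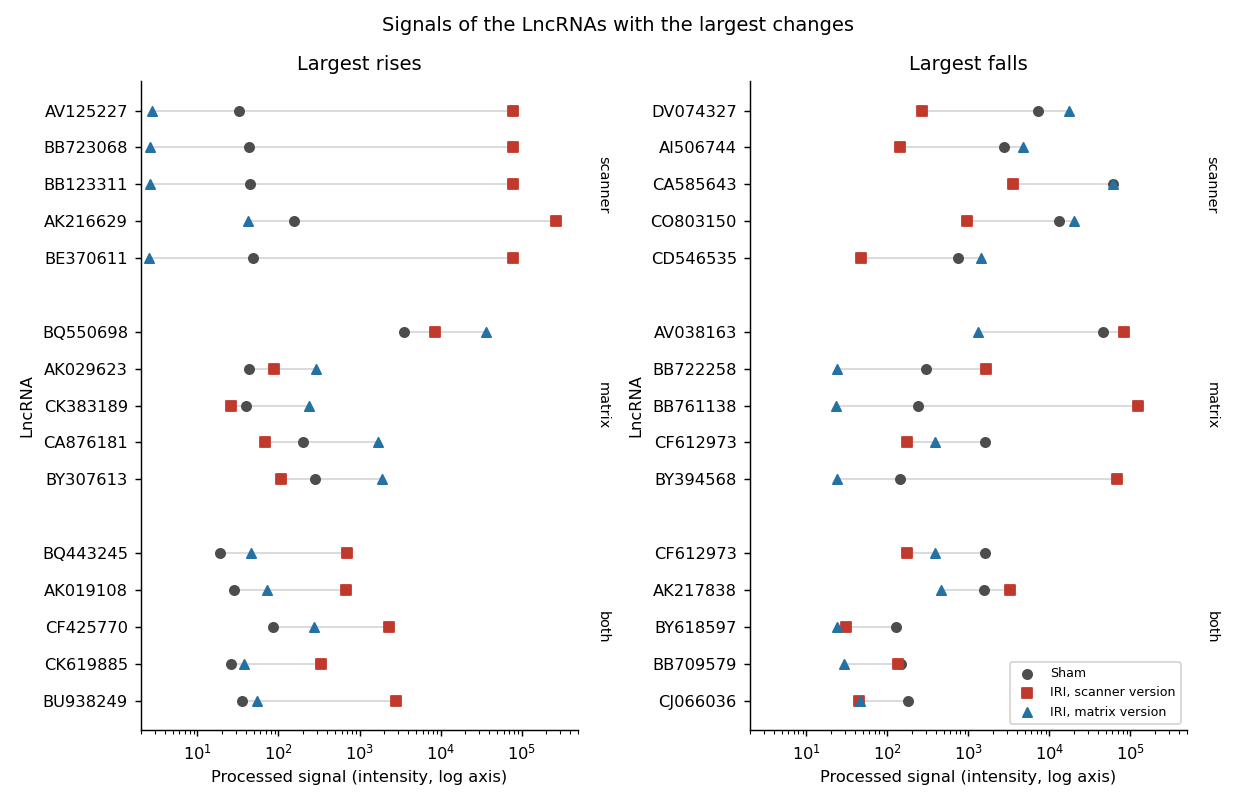
Processed signal (x axis, intensity, log axis) of LncRNAs with the 5 largest rises (left) and falls (right) in the scanner files, in the series matrix and, by the smaller of their changes, in both; each row is 1 LncRNA with its sham, IRI scanner and IRI matrix signal. AV125227 moves from 33.0 to 78341 in the scanner file and to 2.76 in the matrix, whereas BQ443245 and CF612973 move the same way in both.

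The LncRNAs with the largest change in both versions were ranked by the smaller of their changes. Among rises, BQ443245 had a signal of 18.9 ± 3.93 in sham plasma, 701 ± 70.1 in the IRI scanner version and 46.4 in the matrix, and its log2 fold change was 2.86 in the scanner files and 1.71 in the matrix. The cDNA AK019108 had 28.3 ± 4.87, 673 ± 67.4 and 72.9, with 2.09 and 1.61. CF425770 had 85.7 ± 9.24, 2317 ± 232 and 274, with 1.56 and 1.43. All 3 stood above their sham signal in both versions, also without normalization. CK619885 had 25.6 ± 4.28, 333 ± 33.4 and 38.0, with 1.44 and 0.96, and BU938249 had 35.1 ± 5.71, 2821 ± 282 and 54.8, with 3.50 and 0.90. The sham signals of BQ443245, CK619885 and AK019108 were close to 16.67, the lowest sham signal well above background.

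Among falls, CF612973 led with -5.97 and -2.59. BY618597 had a signal of 127 ± 13.2 in sham plasma, 31.4 ± 4.03 in the IRI scanner version and 24.1 in the matrix, with log2 fold changes of -4.37 and -2.31. CJ066036 had 179 ± 18.3, 44.3 ± 5.10 and 46.4, with -4.51 and -2.07. These 3 ESTs were below their sham signal in both versions, also without normalization. BB709579 had 149 ± 15.3, 134 ± 13.6 and 29.6, with -2.85 and -2.30, but its unnormalized log2 ratio in the scanner files was -0.15, within 1 error of 0.21. The cDNA AK217838 had 1561 ± 156, 3310 ± 331 and 467, with -2.34 and -2.32, and its unnormalized log2 ratio in the scanner files was 1.08, so that its fall there rested on the normalization.

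Brightness of a spot depends on the probe as well as on the RNA, so the brightest spots are given for their course over the arrays and not as a ranking of abundance. CR514518 had the brightest sham spot of these LncRNAs, with a signal of 167555, and 65206 in the IRI scanner version and 97753 in the matrix. CO433172 had 58361, 19428 and 47748, and BY668174 had 48237, 9107 and 48928. These LncRNAs and CA585643 were lower in the scanner file, and CO433172, BY668174 and CA585643 changed by at most 0.38 on the log2 scale in the matrix. CR513841 went from 37125 to 117688 in the matrix, with a log2 fold change of 1.68, and to 7384 in the scanner file, with -5.16. In the IRI scanner version AV131371 rose from 1305 to 247303 and BY652007 from 975 to 182468, and their signals in the matrix were 1247 and 1015. Their unnormalized log2 ratios in the scanner files were 7.57 and 7.55, beside 7.44 ± 0.26 for Gapdh (SD over 20 spots of 1 array). AK198651 had 102, 113127 and 5.69.

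AK029623, AV038163, BB709579, BB722258, BB761138, BY394568 and BY618597 also stand on the list of changed plasma LncRNAs that accompanies the study. That list was made from these arrays and is not independent evidence of a direction. In the matrix their log2 fold changes were 2.70, -5.53, -2.30, -3.70, -3.38, -2.53 and -2.31 in this order, and in the scanner files -1.06, -1.54, -2.85, -0.98, 6.05, 5.79 and -4.37. After quantile normalization the sign differed between the versions for AK029623, BB761138 and BY394568. Without normalization AK029623 stood 1.06 above its sham signal in the scanner file on the log2 scale, the same direction as in the matrix, and AV038163 and BB722258 stood above theirs by 0.86 and 2.46.

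Clone series differed in how many of their LncRNAs gave a signal. In the IRI scanner version the share well above background was highest in AK, the series of full-length cDNAs, with 70 of 93 LncRNAs (75.3%, against 69.6% of all probes that are not negative controls), followed by DV with 27 of 39 (69.2%). It was lowest in CN with 8 of 21 (38.1%) and in AU with 8 of 20 (40.0%). In sham plasma the share ran from 23.8% in CN to 51.4% in BU, where 18 of 35 LncRNAs were well above background. In 21 of the 22 series the share was higher in the IRI scanner version than in sham plasma, and the exception was BU with 17 of 35 (48.6%) in the scanner file. In the matrix the share at or above the floor ran from 23.8% in CN to 10 of 20 in BQ, and AK had 34.4%. Since many series hold 20 to 50 LncRNAs, differences of this size rest on a few probes, and no test was made.

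**Figure D5:**
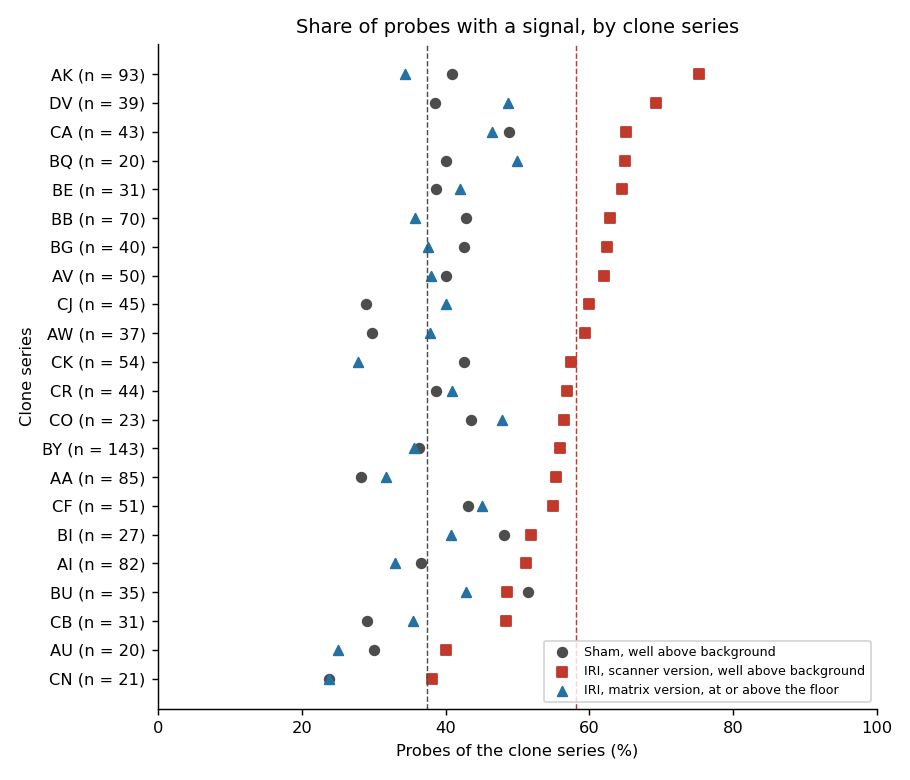
Share of LncRNA probes with a signal (x axis, percent of the probes of a series) in the 22 clone series with 20 or more probes (y axis, n in parentheses), for the sham array, the IRI scanner version and the series matrix; dashed lines mark the shares over all 1209 probes in sham plasma (37.4%) and in the IRI scanner version (58.1%). AK stands at 75.3% in the IRI scanner version and BU is the series with a lower share there than in sham plasma.

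The median log2 fold change in the scanner files was below 0 in all 22 series, from -3.77 in CA to -1.03 in AK. Without normalization it was below 0 in 11 of them, from -1.38 in CO to 1.67 in AV. In the matrix it was above 0 in 19 of the 22, from -0.19 in BE to 0.85 in AW. Over all detected probes the medians were -1.78, 0.55 and 0.21 in the same order. In the scanner files 10 LncRNAs were upregulated and 19 downregulated of 32 detected in AK, 7 and 17 of 27 in BB, and 5 and 9 of 16 in AV. Falls thus outnumbered rises in these series too, beside the 19.1% upregulated and 69.7% downregulated over all detected probes. In the matrix the same series had 6 upregulated and 9 downregulated of 28 detected, 11 and 5 of 22, and 3 and 4 of 15. Of all probes detected in the matrix, 32.6% were upregulated and 19.9% downregulated. Signals over 1000 in the IRI scanner version were found for 18 of 50 AV LncRNAs (36.0%), 15 of 70 BB LncRNAs (21.4%) and 18 of 93 AK LncRNAs (19.4%), against 9.18% of all GenBank-named LncRNAs and 13.6% of all probes that are not negative controls. In sham plasma they were found for 4, 1 and 3, and in the matrix for 5, 4 and 3. The matrix shares of BB (5.71%) and AK (3.23%) lay below the 5.96% of all GenBank-named LncRNAs, and that of AV lay above it. Over all probes that are not negative controls the matrix share was 5.35%, with BB and AV above it and AK below it. In sham plasma BB (1.43%) and AK (3.23%) lay below the GenBank-named LncRNAs (4.47%) and all such probes (4.15%), and AV lay above both. BY, the largest series with 143 LncRNAs, had 3 upregulated and 37 downregulated of 45 detected in the scanner files and 17 and 10 of 45 in the matrix.

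ESTs and cDNAs were set side by side by the prefix of their accession. Among 1004 ESTs, 37.6% were well above background in sham plasma and 56.3% in the IRI scanner version, and among 169 cDNAs and mRNAs 38.5% and 69.2%. With the CR series left out, 125 cDNAs remained, with 38.4% and 73.6%. Over all probes that are not negative controls the IRI share was 69.6%, close to that of the cDNAs and above that of the ESTs. In the matrix 37.5% of ESTs and 35.5% of cDNAs passed the floor, against 36.9% of all probes. The other 36 LncRNAs, among them the 20 of the AU series, had prefixes outside the lists used and were counted in neither group. Some of them may also be ESTs. Of 312 detected ESTs 29 were upregulated and 258 downregulated in the scanner files, and of 55 detected cDNAs 12 and 39. In the matrix the counts were 109 and 48 of 293 ESTs and 12 and 15 of 48 cDNAs. Over all detected probes the shares were 19.1% and 69.7% in the scanner files and 32.6% and 19.9% in the matrix. The median log2 fold change of ESTs was -2.40 in the scanner files and 0.29 in the matrix, and that of cDNAs -1.68 and 0.01.

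Within AK, the accessions numbered 170000 or more stood apart. This grouping was made after the values were seen. Of 15 such LncRNAs, 14 carried the mark of a signal well above background in the IRI scanner version, 9 in sham plasma, and 7 were at or above the floor in the matrix. Of the 9 detected in the scanner files, 6 were upregulated and 2 downregulated, with a median log2 fold change of 2.90 and an unnormalized median of 6.28. These 6 are among the 12 upregulated cDNAs above. In the matrix 1 of these LncRNAs was upregulated and 4 downregulated of 7 detected, with a median of -1.65. Over all detected probes 19.1% were upregulated and 69.7% downregulated in the scanner files, and 32.6% and 19.9% in the matrix. The lower-numbered 78 AK LncRNAs had medians of -1.46 in the scanner files and -0.01 in the matrix over 23 and 21 detected. AK216629, AK198651 and AK217838 belong to the high-numbered group.

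There were 8 pairs of LncRNAs with consecutive accession numbers, which may stem from neighbouring clones of a library. In 4 of them 1 LncRNA had a sham signal over 50 and its neighbour one under 15, and in the other 4 both sham signals were under 30. BY365123 had 318 in sham plasma, 41.4 in the IRI scanner version and 237 in the matrix, and BY365122 had 12.7, 2.53 and 3.06. CD546535 had 745, 47.5 and 1442, and CD546536 had 9.12, 125 and 27.8. CA876181 and CA876182 had 198 and 4.51 in sham plasma, 67.7 and 44.9 in the scanner file and 1695 and 13.4 in the matrix. The fourth such pair was EL606405 and EL606404, with 79.8 and 3.60 in sham plasma, 211 and 2.53 in the scanner file and 84.8 and 2.85 in the matrix. These 4 pairs are shown because of that difference in sham signal, and signals of different probes also differ by probe.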

How the data were processed

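RNA of pooled plasma was hybridised to 1 array per group, the Arraystar Mouse LncRNA Microarray v2.0 (Agilent, 1 colour). The authors extracted the array images with Agilent Feature Extraction 11.0.1.1 (version as in the submitters' processing notes) and deposited a processed signal for each spot, an intensity after background subtraction that is not normalized between arrays, with its error and flags of 0 or 1. The authors also deposited a series matrix of linear intensity values. The study's quantile normalization was made in GeneSpring GX, and its Present or Marginal calls are not in these files, so scanner flags stood in for them. The matrix has 0 columns without a sample. The number of arrays limits the precision.

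After a log2 transform, signals were quantile normalized over the 61194 spots with Python 3.11.15, numpy 2.4.6 and pandas 2.3.3. The normalization was checked against the function of limma 3.58.1 (R 4.3.3) and tested on simulated data with known changes. The simulated array was a copy of the sham array with added noise and changes in few spots. That test therefore cannot show whether the normalization suits arrays that differ as widely as these. In the matrix, detection rested on the sham flags plus an IRI signal of at least 16.67. The LncRNAs described, the clone series and the rules were chosen with earlier results of these data known. The 46 LncRNAs named by rule were those on the study's list, the 5 largest rises and falls in each version and in both, the 5 brightest in each column and the 5 brightest on 1 array only in each direction. Alternatives covered detection flags, outlier spots, normalization, normexp with an offset of 50, the series matrix, fold thresholds and a filter on dim spots. The study's liver arrays and PCR assays were not used here.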

Additional observations from a re-analysis of the deposited data

How the results depend on the processing

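No paired analysis was possible because each group has 1 array. For the same reason no replicate could be left out. The count of 375 detected LncRNAs was 713 with positive and significant spots on both arrays, 779 with spots well above background on at least 1 array and 184 with a filter on dim spots. In these 3 settings the upregulated LncRNAs numbered 149, 280 and 32 in place of 41, the downregulated ones 466, 409 and 144 in place of 304, and the median log2 fold change was -1.44, -0.75 and -3.31 in place of -2.29. In the first setting 20.9% were upregulated and 65.4% downregulated, against 29.6% and 56.2% of all such probes. In the second the shares were 35.9% and 52.5%, against 44.1% and 44.1%. For the filter on dim spots and for other fold thresholds the shares over all probes are not given here. Upregulated LncRNAs numbered 83 with quantile normalization over detected spots and 147 without normalization, and downregulated ones 148 without normalization. The median was -0.89, -0.015 and, with normexp background correction at an offset of 50, -1.31. The matrix gave 124 and 64, with a median of 0.27, which reverses the sign. Chosen after seeing the data, the matrix with 75th percentile scaling gave 203 and 44 with a median of 0.73, and without normalization 150 and 55 with 0.47. Thresholds of 2 and 0.5 gave 38 and 278, and keeping outlier spots changed none of the 4 values. Where the settings differ in normalization or in the IRI version, the cause was not tested.

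Single LncRNAs that changed sign were mostly those of the matrix, 15 of 31 with a value there. These were AI506744 (0.082), AK029623 (2.70), AK216629 (-1.98), AV131371 (-0.74), BB761138 (-3.38), BQ550698 (2.86), BY307613 (2.19), BY394568 (-2.53), BY652007 (-0.64), CA876181 (2.56), CD546535 (0.27), CK383189 (2.57), CO803150 (0.094), CR513841 (1.68) and DV074327 (0.68), as log2 fold changes. Without normalization, AK029623 (1.06), AK217838 (1.08), AV038163 (0.86), BB722258 (2.46) and BQ550698 (1.27) changed sign, and with quantile normalization over detected spots AK029623 (0.12) and BB722258 (0.67). With 75th percentile scaling only BB722258 (0.086) of 36 changed sign, and with normexp none of 36 did.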
